A study of Mus musculus with 6 samples.

Results

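Qk encodes quaking, an RNA-binding protein with a KH domain, and carries more Argonaute (Ago) footprints than any other gene of this table of macrophage data. Its 26 footprints, of 6270 in all, were found by overlap of at least 1 nt with Qk on its own strand in the GENCODE vM1 annotation of mouse build mm9. The gene was selected on its number of footprints, so that number is a description. All 26 lay in an annotated 3′ UTR of Qk, and 0 footprints lay on the opposite strand of the gene.

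Bone-marrow-derived macrophages (BMDM) of C57BL/6 mice were studied by Ago HITS-CLIP, the sequencing of RNA cross-linked to and precipitated with Ago proteins. The groups were 3 libraries from APOBEC1 KO mice (KO) and 3 from WT mice, with littermate pairs as the source and an age of 6 to 12 weeks. In each group marrow cells were grown with M-CSF, 20 ng/mL at first, and matured for 7 days, and the antibody was 2A8. APOBEC1 is an enzyme that deaminates cytidine to uridine in certain mRNAs, and the labels do not give the part of the gene that is deleted. The table holds 1 occupancy value per genotype for each footprint, the authors' combination of the 3 libraries, and the number of libraries in which the footprint was held. Occupancy is a ratio, the Ago signal of a footprint relative to how strongly its transcript was expressed by RNA-Seq. With 1 value per genotype there is no spread between libraries and no test of KO against WT, and every difference given here lacks a replicate check. In such bulk values, fewer cells with a bound transcript and less binding per cell cannot be told apart. Depth is unknown, since the table gives no read counts. Of 8 macrophage marker genes 6 carried footprints, among them Emr1 (F4/80) and Itgam (CD11b), against 0 of 4 T cell, 0 of 3 B cell, 0 of 4 neutrophil and 0 of 3 stromal fibroblast markers. Of 4 oligodendrocyte markers 1, Mbp, carried 3 footprints. The targeted gene, Apobec1, had 3 footprints with a summed occupancy of 0.312 in KO and 0.372 in WT, which does not check the genotype.

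Quaking belongs to the STAR family of RNA-binding proteins and regulates splicing, the formation of circular RNAs, and the stability and translation of mRNAs. It is best known from the myelin-forming glia affected in quaking mutant mice, and in human cells it has also been linked to the maturation of monocytes into macrophages. Alternative splicing of the last exons gives nuclear and cytoplasmic proteins with different C termini, and the mRNAs then carry different 3′ UTRs. Ago is guided to such 3′ UTRs by miRNAs, which pair with their targets mainly through the seed.

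Qk lies on the minus strand of chromosome 17, at chr17:10399336-10512245. Its annotated 3′ UTRs fall into 2 stretches, that of transcript Qk-202, which spans 5244 nt (chr17:10403055-10408298), and that of transcript Qk-204, which spans 3147 nt (chr17:10399336-10402482). Both lengths include the stop codon, as annotated. The footprints were numbered 1 to 26 along the transcript. Footprints 1 to 15 lay in the Qk-202 3′ UTR and 16 to 26 in the Qk-204 3′ UTR. The annotation is not unique there, since footprints 1 and 2 also overlapped the last coding exon of Qk-205 and footprint 7 that of Qk-203. No source used here says which transcript's expression served as the divisor.

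Seed sites were looked for first, because they name miRNAs that could bring Ago to these places. No miRNA abundance in these macrophages was used, so whether the listed miRNAs are present there was not tested. Mature sequences of 35 of 40 listed families were found in RefSeq (build GRCm38.p6), and a site is a 7-nt match to bases 2 to 8 of the miRNA on the transcript strand. Of the 26 Qk footprints 5 held a site (19.2%), a share below the 26.0% of all footprints of the table. The 6 miRNAs with a site are shown 5′ to 3′ with their seed in capitals. miR-17 and miR-19 are products of the same primary transcript, and each of the 6 has a seed of its own.
mmu-miR-130a-3p: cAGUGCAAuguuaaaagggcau
mmu-miR-17-5p: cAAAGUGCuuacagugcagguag
mmu-miR-19b-3p: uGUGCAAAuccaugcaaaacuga
mmu-miR-148a-3p: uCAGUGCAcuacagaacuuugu
mmu-miR-221-3p: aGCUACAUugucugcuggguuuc
mmu-miR-374b-5p: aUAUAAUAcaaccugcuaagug

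The densest place was the 3′ edge of footprint 2, where sites for the miR-130, miR-17 and miR-19 families overlapped or lay next to each other. The windows below are mm9 sequence of the minus strand, 5′ to 3′, with the matched 7 nt in capitals. They show that the miR-130 and miR-17 matches share most of their bases and that the miR-19 match begins on the last base of the miR-17 match.
miR-130 in footprint 2, chr17:10406913-10406941: agtcagtgacttacTTGCACTttttgcac
miR-17 in footprint 2, chr17:10406911-10406939: tcagtgacttacttGCACTTTttgcacat
miR-19 in footprint 2, chr17:10406905-10406933: acttacttgcacttTTTGCACatagatat

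Footprint 14 repeated the miR-130 match, here overlapped by a miR-148 match. Footprints 6 and 13 each held a miR-374 match and footprint 20 a miR-221 match.
miR-130 in footprint 14, chr17:10403775-10403803: catagactctaaccTTGCACTgagcatct
miR-148 in footprint 14, chr17:10403774-10403802: atagactctaacctTGCACTGagcatctt
miR-374 in footprint 6, chr17:10405725-10405753: tatccatttttctaTATTATAaaacattg
miR-374 in footprint 13, chr17:10403851-10403879: aaggtaaataggtcTATTATAtagaacat
miR-221 in footprint 20, chr17:10401487-10401515: atatatttttggaaATGTAGCattttata

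Footprints with a seed site differed in direction between the genotypes. Footprint 2 had an occupancy of 1.54 in KO and 0.251 in WT. Footprint 14 had 0.237 in KO and 0.109 in WT. Both were higher in KO, with log2 ratios of 2.61 and 1.11. Footprint 6 had 0.164 in KO and 0.445 in WT, footprint 13 had 0.411 in KO and 0.487 in WT, and footprint 20 had 0.228 in KO and 1.77 in WT. These were lower in KO, by log2 ratios of -1.44, -0.25 and -2.95. The median log2 ratio was -0.25 over the 5 footprints with a site and -0.40 over the 21 without, and footprints of 1 gene are not replicates. An adenosine after the match, which makes an 8-nt site, was present in footprints 6, 14 and 20 (3 of 26, 11.5%; 9.86% of all footprints) for miR-374, miR-148 and miR-221, and it also followed the miR-19 match just past the edge of footprint 2. The matches lay 24, 26 and 32 nt downstream of the middle in footprint 2, and upstream of the middle in the others, at -13 nt in footprint 6, -28 nt in footprint 13, -27 and -26 nt in footprint 14 and -33 nt in footprint 20.

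Across both 3′ UTRs the 35 families had 45 sites, from 21 families, and 8 of these sites (17.8%) lay within a footprint. The footprints cover 23.2% of the 3′ UTR bases, so sites were not more frequent inside than outside. None of the 4 sites of miR-27, of the 4 of miR-101, of the 4 of miR-142-5p, of the 4 of miR-214 or of the 5 of miR-200bc lay in a footprint. The miR-15/16 and miR-223 families had 2 sites each outside footprints, and miR-155 and miR-29 had 1 each. All sites of 3 families lay in footprints, 2 of miR-130, 1 of miR-17 and 1 of miR-221.

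The strongest Ago binding on Qk was a single place far into the Qk-202 3′ UTR. Footprint 10 (chr17:10404613-10404675), with its middle 3655 nt from the start of that UTR, had an occupancy of 6.29 in KO and 11.9 in WT. These values were at or above 99.3% of the KO values and 99.8% of the WT values of the table. It was held by 3 KO and 3 WT libraries, and its log2 ratio was -0.92. It gave 25.7% of the summed occupancy of Qk in KO and 35.4% in WT, and stood above every other Qk footprint in both genotypes. No 7-nt site of the 35 families lay in it. Against all 1398 distinct seeds of mature mouse miRNAs in RefSeq, a search chosen after the data were examined, it had 7 matches, beside a median of 6.00 in the 542 footprints of the same 63 nt in the table.

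The next strongest places were on both 3′ UTRs. Footprint 19 (chr17:10401568-10401630) had 1.01 in KO and 3.13 in WT, and was held by 1 KO and 2 WT libraries. Footprint 3 (chr17:10406842-10406908) had 1.72 in KO and 2.27 in WT, with 2 libraries of each genotype. Both were lower in KO, with log2 ratios of -1.63 and -0.40. Footprint 24 (chr17:10400437-10400499) had 1.87 in KO and 1.59 in WT and was the only other Qk footprint held by all 6 libraries, with a log2 ratio of 0.24. Footprint 15 (chr17:10403407-10403480) had 1.29 in KO and 2.01 in WT (-0.64). Qk thus had 2 of 26 footprints in all 6 libraries, where 5.89% of the table's footprints were.

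**Figure D1:**
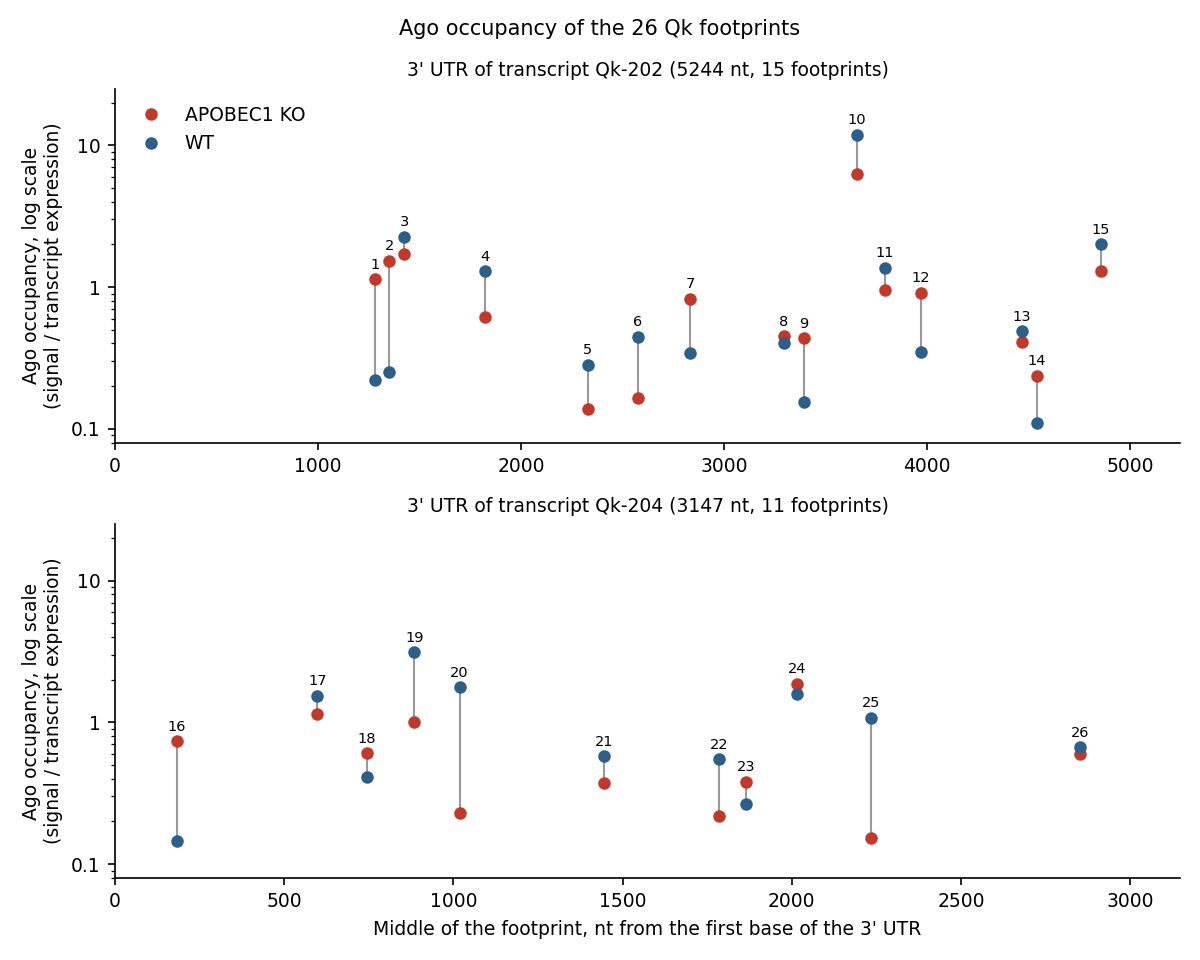
Ago occupancy (signal over transcript expression, log scale) of the 26 Qk footprints in APOBEC1 KO and WT macrophages, by the distance of the footprint's middle from the start of its 3′ UTR in nt, with the Qk-202 3′ UTR above and the Qk-204 3′ UTR below. Each point is the authors' combined value of 3 libraries, a line joins the KO and WT values of a footprint, and footprint 10 stands alone at 6.29 in KO and 11.9 in WT.

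The median Qk footprint had more Ago occupancy than the median footprint of the table. No Qk footprint was listed at 0, and of the table's 6270 footprints 290 were at 0 in KO and 0 in WT. The Qk footprints summed to 24.4 in KO and 33.6 in WT (log2 of the sums -0.46). Without footprint 10 the sums were 18.2 in KO and 21.7 in WT (-0.26). The median footprint went the other way, with 0.610 in KO and 0.518 in WT (0.24). The sum and the median footprint therefore do not give 1 direction for the gene. The medians of the whole table were 0.377 in KO and 0.406 in WT, and 20 of the 26 reached the table's median of 0.425 in mean occupancy. By genotype, 19 of the 26 reached the table's median in KO and 16 in WT. Medians of other genes with many footprints lay on both sides of Qk, as in Tet3 (1.04 in both genotypes) and Gas7 (0.171 in KO and 0.136 in WT).

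Single footprints of Qk moved in opposite directions. The ratio was higher in KO for 11 footprints (42.3%) and lower for 15, where 48.7% of all footprints were higher in KO. A ratio of 2-fold or more was reached by 7 footprints higher in KO (26.9%; 18.9% of all footprints) and by 7 lower in KO (26.9%; 24.2% of all). Together 14 of 26 differed by 2-fold or more, as did 43.1% of all footprints. The median log2 ratio was -0.32 over Qk and -0.04 over the table.

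Those highest in KO began the footprinted parts of both 3′ UTRs. Footprint 1 (chr17:10406987-10407049) had 1.14 in KO and 0.222 in WT (log2 ratio 2.35), and lay 3 nt from footprint 2 (2.61), which in turn lay 4 nt from footprint 3. Footprint 16 (chr17:10402269-10402333), the first of the Qk-204 3′ UTR, had 0.740 in KO and 0.145 in WT (2.34). In WT these were among the weaker Qk footprints, and in KO they were above the gene's median. The direction changed between neighbours, since footprint 3 was lower in KO although footprints 1 and 2 beside it were more than 4-fold higher. Footprint 1 was held by only 1 KO library and 2 WT libraries, and footprints 2 and 3 by 2 of each. Footprint 9 (chr17:10404856-10404957) had 0.434 in KO and 0.154 in WT (1.49), and footprint 12 (chr17:10404275-10404390) had 0.911 in KO and 0.346 in WT (1.39). The other one past 2-fold, footprint 7, had 0.829 in KO and 0.341 in WT (1.28). Of these 7, footprints 7, 12 and 16 were held by more KO than WT libraries, and footprints 9 and 14 by 0 KO libraries. Each footprint needed at least 2 libraries of 1 genotype to enter, and footprints 7 and 16 entered through KO alone. Their higher values in KO are thus in part built into the table. Footprints 1, 9 and 14 entered through WT alone and were still higher in KO.

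Those lowest in KO were mostly on the Qk-204 3′ UTR. Footprint 20 (chr17:10401397-10401533), at 137 nt the longest of Qk, had 0.228 in KO and 1.77 in WT (-2.95). Footprint 25 (chr17:10400217-10400279) had 0.153 in KO and 1.08 in WT (-2.81), and footprint 19 followed at -1.63. In WT these 3 were above the gene's median of 0.518, and in KO footprints 20 and 25 were among its 5 lowest. Footprint 22 (chr17:10400649-10400745) had 0.220 in KO and 0.549 in WT (-1.31), and it overlapped footprint 23 by 4 nt, which was higher in KO with 0.381 against 0.267 in WT (0.51). In the Qk-202 3′ UTR, footprints 6 (-1.44), 4 (0.613 in KO and 1.29 in WT; -1.07) and 5 (0.139 in KO and 0.284 in WT; -1.02) passed 2-fold. Footprints 5, 6, 20, 22 and 25 were held by 2 WT and 0 KO libraries, and footprint 4 by 2 of each. Each footprint needed at least 2 libraries of 1 genotype to enter, so footprints 5, 6, 19, 20, 22 and 25 entered through WT alone. Their lower values in KO are thus in part built into the table.

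**Figure D2:**
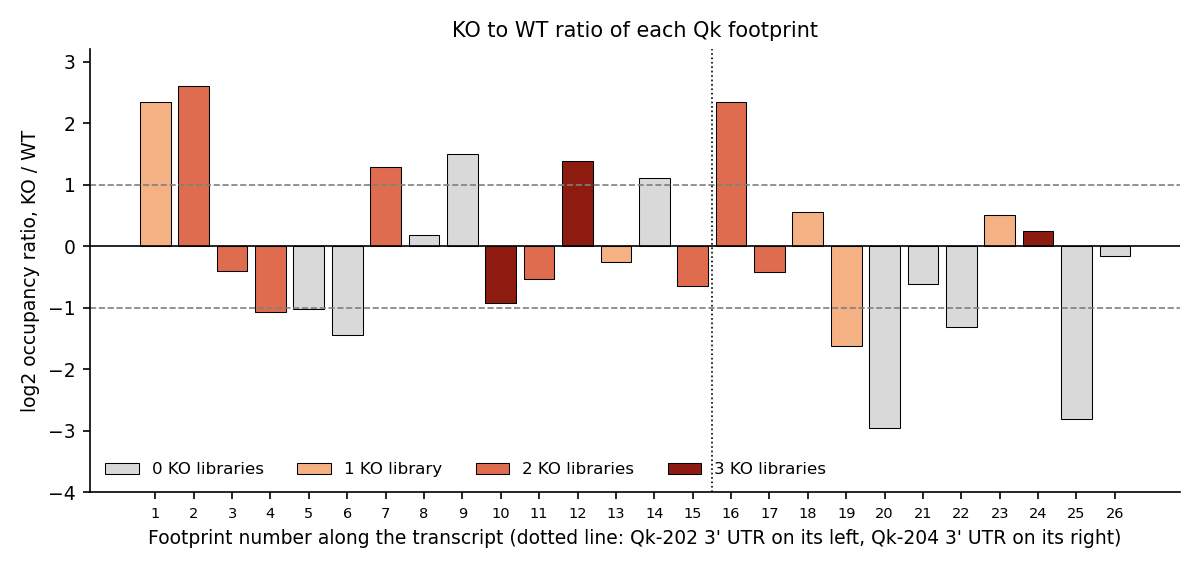
Log2 ratio of KO over WT occupancy for each Qk footprint in order along the transcript, coloured by the number of KO libraries that held it; dashed lines mark 2-fold and the dotted line parts the 3′ UTRs of Qk-202 and Qk-204. Bars run from -2.95 (footprint 20) to 2.61 (footprint 2). Of the 7 bars past 2-fold lower 5 belong to footprints that no KO library held, as do 1054 of the 1518 such footprints of the whole table.

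The remaining footprints stayed within 2-fold. Footprint 11 had 0.949 in KO and 1.37 in WT (-0.53), and footprint 17 had 1.15 in KO and 1.54 in WT (-0.42). Footprint 8 had 0.452 in KO and 0.400 in WT (0.18). The last footprint of the gene, 26, had 0.598 in KO and 0.668 in WT (-0.16). Differences of this size were seen also for footprints 18 (0.608 in KO and 0.411 in WT; 0.56) and 21 (0.375 in KO and 0.578 in WT; -0.62).

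The 3′ UTRs of both transcripts were compared by their footprints. The 15 of Qk-202 summed to 17.1 in KO and 21.9 in WT (-0.35), and the 11 of Qk-204 to 7.33 in KO and 11.7 in WT (-0.68). The median log2 ratio was -0.25 on Qk-202 and -0.42 on Qk-204. Of the 15 on Qk-202, 6 were 2-fold or more higher in KO and 3 lower, and of the 11 on Qk-204, 1 was higher and 4 lower, beside the 18.9% higher and 24.2% lower of all footprints. Without footprint 10, the Qk-202 sums turned to 10.8 in KO and 9.98 in WT (0.12). The direction of the Qk-202 sum thus rested on 1 footprint. Footprints were spread unevenly, with none in the first 1249 nt of the Qk-202 3′ UTR and the first of Qk-204 after 149 nt. Most of that Qk-202 stretch lies upstream of the last coding exon of Qk-205 (chr17:10406979-10407059). Whether the stretch was part of the expressed mRNA was not tested. Neighbours within a 3′ UTR lay a median of 168 nt apart, and 5 of 24 gaps were under 20 nt.

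The number of libraries that held a footprint is part of how the table was made, since each needed at least 2 libraries of 1 genotype. At least 2 KO libraries held 11 Qk footprints (42.3%; 40.1% of the table) and at least 2 WT libraries held 24 (92.3%; 94.9%). At least 2 libraries of both genotypes held 9 (34.6%; 35.0%). No KO library held 10 (38.5%; 27.9% of the table). These 10 still had KO values, from 0.139 to 0.598, and 8 of them were exactly equal to the KO value of another footprint of the table, as were 4 of the 16 held by at least 1 KO library. Among all footprints 66.2% of the KO values above 0 with no KO library were shared in this way. No source used here says how such values were made.

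The ratio can be set out by the number of KO libraries. The median log2 ratio was -0.82 over the 10 Qk footprints held by none, 0.51 over the 5 held by 1, and -0.40 over the 11 held by 2 or 3. In the table the same medians were -1.32, -0.04 and 0.55. Among the 9 held by at least 2 libraries of both genotypes, footprints 2, 12 and 24 were higher in KO and 6 were lower, with a median of -0.42, beside a median of 0.42 and 68.5% higher in KO over the 2196 of the table. Footprints 3, 4, 10, 11, 15 and 17 were the 6. Over the 16 held by at least 1 KO library, 5 were 2-fold or more higher in KO and 2 lower, with a median of -0.00. Of the 4518 footprints of the table in this class 25.3% were higher and 10.3% lower. The number of KO libraries is not independent of the KO value. Of the table's footprints held by none, 2.45% were 2-fold or more higher in KO and 60.2% lower. Over the table as a whole, leaving them out thus removes mainly lower ones.

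Base composition moved with the ratio within Qk. The Qk footprints were rich in A and U, with a median G+C content of 35.6% (22.4% to 52.4%), against 42.9% in the table. The 3′ UTRs as a whole had 33.7% (Qk-202) and 35.0% (Qk-204). Among the 13 footprints of higher G+C (36.2% to 52.4%) 7 were 2-fold or more higher in KO and 1 lower, with a median log2 ratio of 1.11, and among the 13 of lower G+C (22.4% to 34.9%) 0 were higher and 6 lower, with a median of -0.64. All 7 footprints past 2-fold higher in KO were thus in the G+C-richer set. Of all footprints, at any G+C content, 18.9% were 2-fold or more higher in KO and 24.2% lower. Their shares within these 2 G+C ranges were not counted, so how far the split goes beyond the table was not tested. Between G+C content and ratio, Spearman's rho was 0.515 over the 26 footprints and 0.325 over the table, and the points share 1 gene and the same combined libraries. At least 2 KO libraries held 7 of the G+C-richer and 4 of the G+C-poorer 13. The median log2 ratio was -0.37 among the 2213 other footprints with a G+C content within the quartiles of Qk (30.3% to 41.3%). Of these, 11.1% were 2-fold or more higher in KO and 32.0% lower. Over all 26 Qk footprints the values were -0.32 and 26.9% in each direction. Those 26 include footprints outside that G+C range, so the 2 sets are not matched in base composition. The part of base composition in the ratios was not tested.

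**Figure D3:**
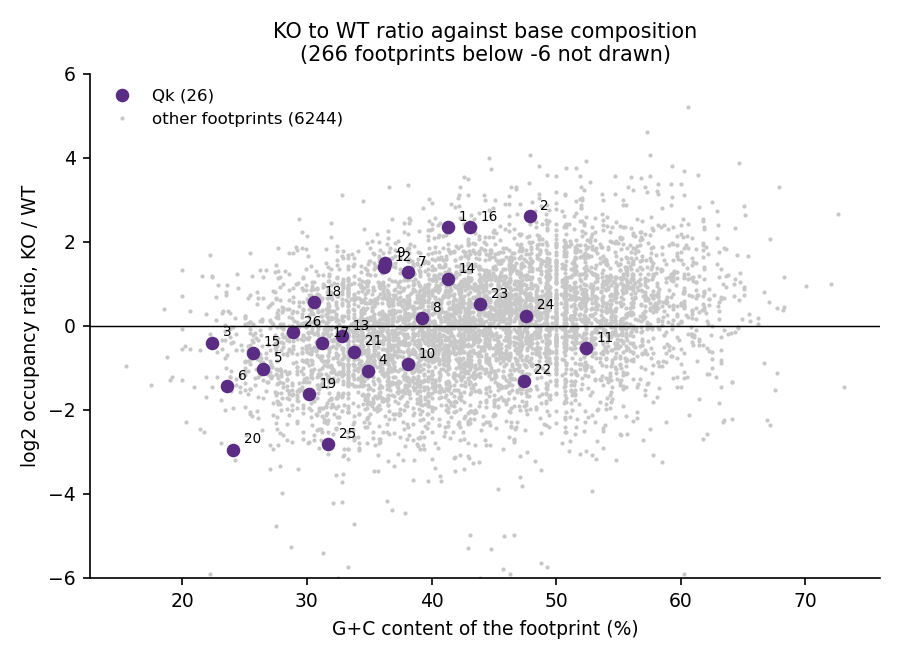
Log2 ratio of KO over WT occupancy against the G+C content of the footprint (%), for the 26 Qk footprints (large points, numbered along the transcript) and the other 6244 footprints of the table (small points); 266 footprints below -6 on this scale are not drawn. Qk footprints of at least 36.2% G+C include all 7 that were 2-fold or more higher in KO.

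Motifs of RNA-binding proteins were looked up on the transcript strand only. The AU-rich element core ATTTA, bound by decay factors, was in 5 of 26 Qk footprints (19.2%; 11.9% of the table), footprints 1, 3, 5, 6 and 13. The core ACTAA of the element that quaking itself binds was in 2 (7.69%; 7.83% of the table), and the 3′ UTRs hold 9 copies in all, 8 of them on Qk-202. The Pumilio motif TGTANATA was in 1 (3.85%; 3.81%) and the polyadenylation signal AATAAA in 1 (3.85%; 7.00%). The 2 ACTAA matches in footprints are printed with the match in capitals. The search required no base beyond this core, so a match is not shown to be a full quaking element. Binding of quaking to its own mRNA was not measured here.
ACTAA in footprint 7, motif at chr17:10405474-10405478: ccttttttACTAAcctgtgac
ACTAA in footprint 12, motif at chr17:10404288-10404292: agttgcttACTAAaaacaaac

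The mooring motif, a sequence known to lie just downstream of cytidines edited by APOBEC1, was also searched by its consensus. It was present in 1 Qk footprint, footprint 12 (3.85%), and in 21 footprints of the table (0.335%), and the Qk-202 3′ UTR holds 3 copies. In footprint 12 only 1 base of the footprint precedes it, at chr17:10404380-10404389, and the bases further upstream lie outside. Footprint 12 was held by 3 KO and 2 WT libraries and was higher in KO (1.39). Whether Qk is edited in these cells cannot be read from this table.

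Qk was 1 of 97 genes with at least 10 footprints. Its annotated 3′ UTRs add up to 8391 nt, the fourth longest of these genes, and its density of 3.10 footprints per kb was near their median of 2.94. The median log2 ratio of Qk was the 16th lowest of the 97, whose medians ran from -1.03 to 1.29, and its G+C content was the 8th lowest. Nearest to Qk in the median log2 ratio over footprints were Trim25, a ubiquitin ligase of antiviral signalling (-0.32, 11 footprints), the kinase Hipk1 (-0.28, 14) and Kctd12 (-0.27, 10), a likeness in 1 number from 2 combined values per footprint. Among the genes with the next most footprints, Slc5a3, a transporter of myo-inositol, had 22 and the lowest median (-1.03; sums of 19.3 in KO and 24.4 in WT). The amino acid transporter Slc43a2 had 19 footprints and a median of 0.68 (sums of 5.46 in KO and 3.95 in WT). The methylcytosine dioxygenase Tet3 had 18 and a median of 0.51, with nearly equal sums of 27.7 in KO and 27.3 in WT. Etnk1 (-0.14), Gas7 (0.01) and the G protein subunit gene Gnaq (0.33) tied at 17 footprints. The median ratios of genes with many footprints thus differed in direction.

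**Figure D4:**
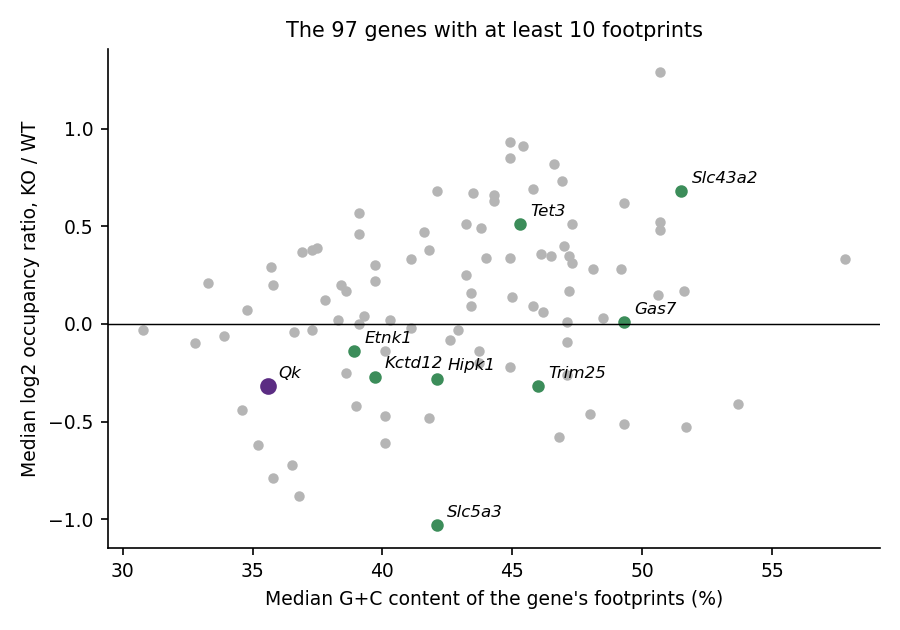
Median log2 ratio of KO over WT occupancy against the median G+C content (%) of the footprints, 1 point for each of the 97 genes with at least 10 footprints. Qk (large point) is at -0.32 and 35.6%, and Slc5a3 is lowest at -1.03.

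Other STAR genes and other splicing regulators were mixed in direction by summed occupancy, with more of the splicing regulators lower than higher in KO. Of the 5 STAR genes 3 were measured. Sf1, a splicing factor that recognises the branch point, had 1.18 in KO and 0.844 in WT over 3 footprints (0.49), and Khdrbs1 (Sam68) had 1 footprint, listed at 0 in KO and 0.190 in WT. Of 31 splicing regulators 17 were measured by 84 footprints, and by the sum of occupancy 4 were higher in KO and 13 lower, with a median of -0.33. Over all 2223 genes 1063 were higher and 1160 lower, with a median of -0.04. Of the 17, 0 were 2-fold or more higher in KO (11.7% of all genes) and 1 was lower (17.9% of all genes), Tra2b, with 0.708 in KO and 2.72 in WT (-1.94). Hnrnpc (0.262 in KO and 0.471 in WT; -0.84) was next lowest, and Celf1 (6.33 in KO and 5.00 in WT; 0.34) and Sf3b1 (0.640 in KO and 0.511 in WT; 0.32) were highest. Of 11 genes whose mRNAs were reported in other cells as bound by quaking, 4 were measured, 1 higher and 3 lower in KO. Cdkn1b, a cell cycle inhibitor, stood at 1.27 in KO and 3.25 in WT (-1.35), and the myelin gene Mbp showed 0.931 in KO and 1.17 in WT (-0.33). Wdr1 stood at -0.28 and Ctnnb1 at 0.02.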

How the data were processed

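Ago HITS-CLIP libraries of 3 APOBEC1 KO and 3 WT macrophage cultures were grouped by the genotype label. Reads were aligned to mm9, per the series design text. The submitters' processing notes name Bowtie 0.12.8 and bedtools. The authors deposited occupancy as a ratio of footprint signal to transcript expression, and the number of libraries holding each footprint as a count, per the series design text and the file header. No source used here says how libraries were combined and scaled.

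Starts were counted from 1. Each footprint took the first class it overlapped on its strand (3′ UTR, coding sequence, 5′ UTR, exon, intron) in GENCODE vM1. The log2 ratio of KO over WT used a pseudocount of 0.00161, 50% of the smallest value above 0, and understates differences of low values. With 1 value per genotype no test was run, and a 2-fold rule describes size. Seeds and motifs were read from NCBIM37, the assembly of mm9, with exact matches. The scripts were checked on simulated data. They ran in Python 3.11.15 with pandas 2.3.3.

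The gene and the lists were chosen with earlier results of these data known. The naming rule took the 5 strongest, the 5 highest and 5 lowest ratios, footprints held by at least 2 libraries of both genotypes or with a seed site, the 3 genes nearest in median and the 5 with the next most footprints, to which Gnaq was added as tied with the last. The 2 highest and 2 lowest genes of each list were also named. The other Qk footprints, the mooring motif and the grouping by number of KO libraries and by G+C content were added after their values were seen. Pseudocounts, fold rules, filters, scaling and site lengths were varied.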

Additional observations from a re-analysis of the deposited data

How the results depend on the processing

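No paired analysis was possible because the table has 1 combined value per genotype, and for the same reason no library could be left out. The number of Qk footprints higher in KO (11) cannot change with the pseudocount, which is added to both genotypes alike. KO values were also divided by 1.03, the median KO to WT ratio of footprints above 0 in both genotypes. That is a shift of 0.04 on the log2 scale, and the smallest of the 26 single ratios was -0.16 (footprint 26). The division thus could not change a sign either, and the 11 is no check of robustness. The median log2 ratio of Qk ran from -0.42 to -0.12 under the alternatives listed at the outset, was -0.41 over the 12 footprints whose values no other footprint shared and was -0.00 over the 16 held by a KO library. Of the 7 footprints 2-fold or more higher and the 7 lower in KO, a 1.5-fold rule gave 7 and 10, a 3-fold rule 3 and 3, pseudocounts of 0.01, 0.1 and 1 gave 7 and 6, 6 and 5, and 1 and 2, and restriction to footprints held by a KO library gave 5 and 2. The log2 ratio of summed occupancy (-0.46) was -0.26 without footprint 10, -0.36 over footprints held by a KO library, and 0.24 from the median footprint of each genotype in place of the sum, a turn in direction whose cause was not tested. Footprints with a seed site were 5 with 7-nt, 3 with 8-nt and 13 with 6-nt sites. Depth is unknown, so how far it limits the weaker footprints cannot be given.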
